A study of Mus musculus with 7 samples.

Results

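The mouse oocyte divides asymmetrically: its meiotic spindle moves to the cortex through a cytoplasmic actin network, and most of the cytoplasm stays with the egg while a small polar body is cast off. The formin Fmn2 and the Spire proteins nucleate that network together on vesicles that carry Rab11 and the motor myosin Vb, while the Arp2/3 complex builds branched actin at the cortex. Cofilin, non-muscle myosin II and moesin, an ERM protein that ties actin to the membrane, set the turnover and tension of the cortical layer. The 10 genes described here encode this machinery and were chosen by name: Fmn2, Spire1, Spire2, Myo5b, Actr2, Actr3, Arpc2, Cfl1, Myh9 and Msn. A gene was read from the transcript that the deposited table gives under its name and on its strand. This found 9 of the 10 genes among 33437 oocyte transcripts. Of these, 8 reached 1 RPM (the read count of a transcript normalised to the mapped reads of its library) in at least 3 libraries, the filter for testing, and Msn did not. No row carries the name Spire2, and it was read from the transcript that spans it, a choice made after the table had been seen.

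The oocytes were at the germinal vesicle (GV) stage, fully grown and not yet in meiotic division, from 21-day-old females labelled as C57BL6, from lines that the methods give as kept on C57BL/6OlaHsd. Both genotypes carried floxed Setd1b, the gene of an H3K4 methyltransferase, on both alleles according to the labels. Setd1b cKO oocytes (4 libraries) also carried Gdf9-Cre, which acts in oocytes from early follicle growth and cuts out the floxed part of the gene. Setd1b WT oocytes (3 libraries) are labelled as negative for it, although the breeding scheme in the methods also counts females with 1 deleted allele and the Cre as WT. Each library is 1 oocyte, its mother is not given, and the spread between libraries is a spread between oocytes. An RPM value is a share of the reads of a library, and the RNA content of an oocyte was not measured.

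Libraries held 8582493 to 12972367 mapped reads, so that 1 read was worth 0.0771 to 0.117 RPM and 3 reads 0.231 to 0.350 RPM. The share of reads outside the transcripts was 13.2% to 16.4% in the 4 Setd1b cKO libraries and 9.57% to 9.90% in the 3 Setd1b WT libraries, with no overlap. Of 15 oocyte markers 14 were found, all over the filter, and their sum was 22709 to 25320 RPM in Setd1b cKO and 27251 to 30042 RPM in Setd1b WT. Of 22 granulosa cell markers 21 were found, 8 of them over the filter, with sums of 122 to 295 and 93.8 to 278 RPM, while Krt18 and Krt19 were at 0 in all libraries. Serpine2, Nr5a2 and Cyp19a1 carried most of each sum, and the largest, Serpine2, was at 103, 200, 53.5 and 44.9 RPM in Setd1b cKO and at 213, 163 and 43.0 RPM in Setd1b WT (log2 fold change -0.44). The log2 fold changes of Serpine2 and Kitl (-0.083) were below 0, and those of Nr5a2 (0.44), Cyp19a1 (0.22), Fshr (0.33), Krt8 (0.058), Kctd14 and Inha were above 0, and 0 of the 8 passed the threshold defined below with all libraries. Kctd14 was at 2.77, 7.17, 8.53 and 0.350 RPM in Setd1b cKO and at 0 in all Setd1b WT libraries, and Inha at 7.03, 11.4, 13.2 and 0.583 RPM against 0.810, 4.32 and 0 RPM. With all libraries the adjusted p was 0.0546 for Kctd14 and 0.225 for Inha, and both passed without Setd1b cKO replicate 4 (adjusted p = 0.00225 and 0.0173), Kctd14 also with a pseudocount of 0.1 RPM (adjusted p = 0.0214). Their part in the results was not tested. The Setd1b transcript, read over its whole length, stood at 2.68 to 16.7 RPM in Setd1b cKO and at 8.61 to 17.7 RPM in Setd1b WT, which overlap (log2 fold change -0.61, adjusted p = 0.533), but reads outside the floxed segment count in it, so that this value does not check the deletion. In a principal component analysis of all tested transcripts, Setd1b cKO replicate 4 and Setd1b WT replicate 3 stood apart from the other 5 libraries on the second component, which held 31.0% of the variance.

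Of the 8 tested genes, Fmn2 was downregulated in Setd1b cKO oocytes, to 44.0% of its Setd1b WT level, and it was the single call. Genes past the threshold had a limma adjusted p under 0.05, corrected over all 18179 transcripts tested, and a change over 2-fold on the scale of log2(RPM + 1). That is 1 of 8 genes (12.5%), beside 5.71% of all transcripts in either direction and 1.95% in the lower direction, and 1 call among 8 genes cannot be set apart from either share. None of the 8 was past the threshold in the higher direction. The log2 fold changes of 7 of the 8 lay below 0, with a median of -0.24, while the median of all transcripts was 0.12 and 39.7% of them lay below 0. Single libraries moved this summary: without Setd1b cKO replicate 4, Actr3 (0.025) and Myh9 (0.070) were also above 0, which left 5 of 8 below 0 with a median of -0.083. The median was -0.12 without Setd1b WT replicate 1, -0.14 without replicate 2 and -0.42 without replicate 3, and -0.25 without both Setd1b cKO replicate 4 and Setd1b WT replicate 3. Scaled to the reads within transcripts, Actr3 moved above 0, to 0.0071, and the median was -0.16. With libraries centred on the median transcript, 7 of the 8 lay below 0 with a median of -0.40. Over all transcripts 683 were higher and 355 lower, against 458 and 531 when libraries were centred on the median transcript, which moved the median of all transcripts to -0.03, and 428 and 442 after quantile normalisation. In 2 genes, Fmn2 and Myo5b, every Setd1b cKO library was below every Setd1b WT library, beside 7.14% of all transcripts, and in 0 genes was every Setd1b cKO library above, beside 13.2%.

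**Figure D1:**
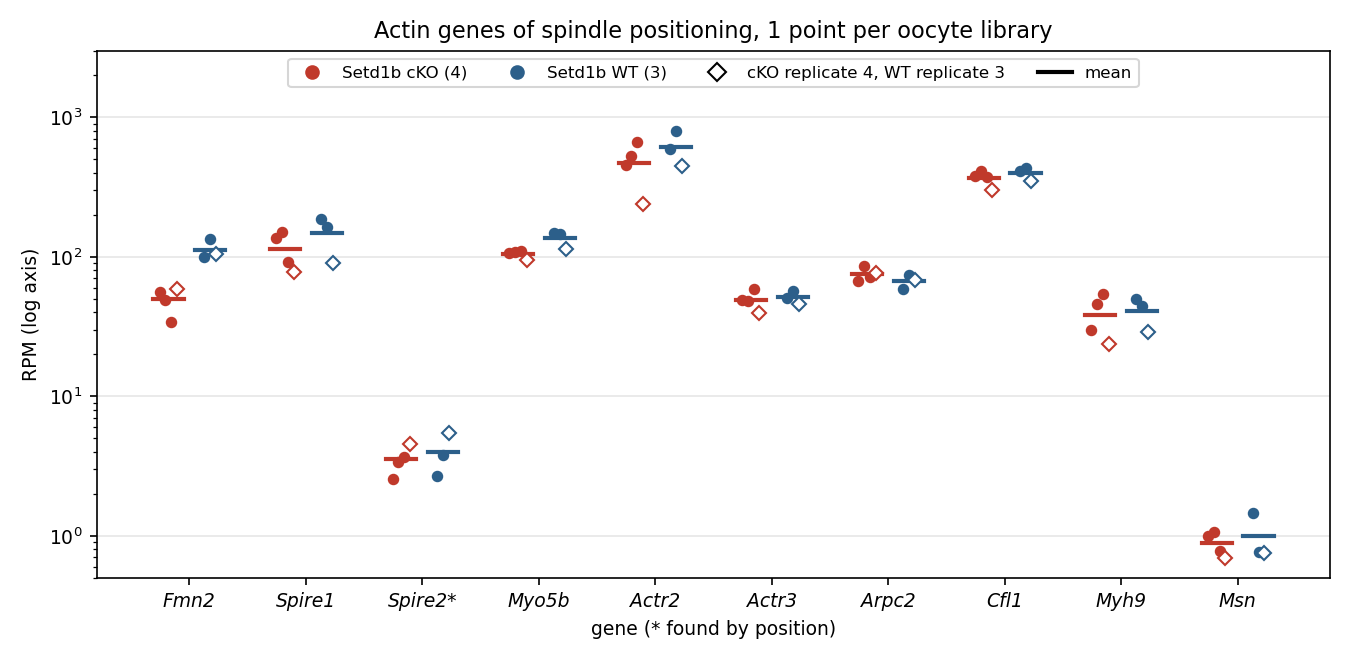
Level of each of the 10 genes in RPM, on a log axis, with 1 point per oocyte library, Setd1b cKO in red, Setd1b WT in blue and the mean of each genotype as a bar. Open diamonds are Setd1b cKO replicate 4 and Setd1b WT replicate 3. The 4 red points of Fmn2, from 33.9 to 58.8 RPM, lie under its 3 blue points, from 100 to 133 RPM, while in Actr3, Arpc2, Cfl1 and Myh9 the colours mix.

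In Setd1b WT oocytes the genes differed widely in level once RPM was divided by the length of the merged exons. Actr2 and Cfl1 led with means of 169 and 159 RPM per kb. Their libraries overlapped, from 123 to 221 for Actr2 and from 139 to 174 for Cfl1, so that their order cannot be told. Arpc2 came next at 33.1 RPM per kb, followed by Spire1 at 25.8, Myo5b at 19.5, Actr3 at 18.8 and Fmn2 at 17.5. The libraries of neighbouring genes in that run overlapped throughout. Myh9 at 5.53, Spire2 at 1.58 and Msn at 0.258 RPM per kb each stood below the gene before it in every Setd1b WT library. In Setd1b cKO oocytes the mean of Fmn2 was 7.70 RPM per kb, and the order of the other genes was the same but for Actr2, at 130, and Cfl1, at 147, and for Myo5b, at 15.1, and Actr3, at 17.96, which changed places within overlapping values.

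The nucleators come first. Fmn2, the formin that elongates the filaments of the cytoplasmic network and without which mouse oocytes fail to bring the spindle to the cortex, lies at chr1:174501825-174822740 on the plus strand (GRCm38). In the Setd1b cKO oocytes, listed for all genes from replicate 1 to replicate 4, it stood at 56.4, 49.2, 33.9 and 58.8 RPM, and in the Setd1b WT oocytes, listed alike, at 100, 133 and 105 RPM. The lowest Setd1b WT oocyte was above the highest Setd1b cKO oocyte, and each value rested on 389 to 1731 reads. The means were 49.6 ± 11.2 RPM (SD, n = 4) and 113 ± 18.01 RPM (SD, n = 3). The log2 fold change was -1.19 with a standard error of 0.24 and a 95% interval from -1.73 to -0.65 (adjusted p = 0.0184, limma). The interval includes changes under 2-fold.

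The call of Fmn2 was lost in 3 of the fits that left out 1 oocyte. Over 17 alternative settings its log2 fold change ran from -1.34 to -1.02 and its adjusted p from 0.00294 to 0.103, with 14 settings past the threshold. The 3 that were not are those without Setd1b cKO replicate 3 (-1.02, adjusted p = 0.0514), without Setd1b WT replicate 1 (-1.27, adjusted p = 0.0584) and without Setd1b WT replicate 2 (-1.06, adjusted p = 0.103). Over all transcripts, lower calls fell from 355 to 221, 153 and 117 in these settings, and higher calls from 683 to 317, 247 and 172. Scaled to the reads within transcripts, which takes out the unequal share of reads elsewhere, the log2 fold change of Fmn2 was -1.11 (adjusted p = 0.0252). Without both libraries that stood apart it was -1.33 (adjusted p = 0.00294). A transcript on the opposite strand lies inside the gene, at 0 to 0.988 RPM in every library, and no other annotated gene shared a stretch of at least 75 bases at 95% identity with the Fmn2 transcript.

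**Figure D2:**
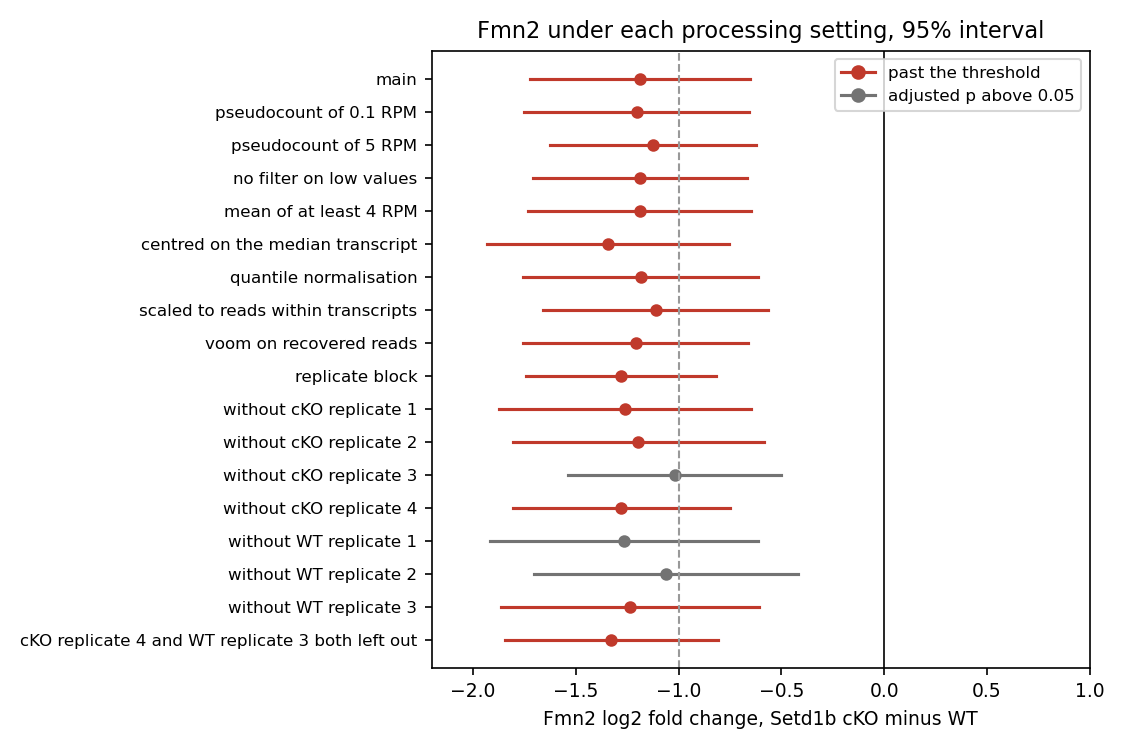
Log2 fold change of Fmn2, Setd1b cKO minus Setd1b WT, with its 95% interval in the main fit and in 17 alternatives, one setting per line, with the dashed line at 2-fold. Red settings are past the threshold and grey ones have an adjusted p above 0.05. All points lie between -1.34 and -1.02, and the 3 grey settings each leave out 1 library.

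The sequence around the Fmn2 start is shown because Fmn2 is the gene that passed the threshold. Beside it are the starts of Actr2 and Arpc2. Actr2 had the highest mean per kb in Setd1b WT, though not told apart from Cfl1. Arpc2 was the one tested gene whose log2 fold change was above 0. Each line runs 5′ to 3′ on the strand of its gene, from 250 bases before to 50 bases after the RefSeq start in GRCm38.p6, with CG dinucleotides in capitals. The windows are chr1:174501575-174501874 (plus strand), chr11:20112902-20113201 (minus strand) and chr1:74236267-74236566 (plus strand).
Fmn2: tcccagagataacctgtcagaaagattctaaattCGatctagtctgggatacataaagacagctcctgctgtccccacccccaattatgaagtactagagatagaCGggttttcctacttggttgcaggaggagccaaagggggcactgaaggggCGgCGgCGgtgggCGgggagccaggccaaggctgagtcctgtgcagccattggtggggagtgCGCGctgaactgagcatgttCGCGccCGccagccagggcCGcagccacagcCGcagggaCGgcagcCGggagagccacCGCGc
Actr2: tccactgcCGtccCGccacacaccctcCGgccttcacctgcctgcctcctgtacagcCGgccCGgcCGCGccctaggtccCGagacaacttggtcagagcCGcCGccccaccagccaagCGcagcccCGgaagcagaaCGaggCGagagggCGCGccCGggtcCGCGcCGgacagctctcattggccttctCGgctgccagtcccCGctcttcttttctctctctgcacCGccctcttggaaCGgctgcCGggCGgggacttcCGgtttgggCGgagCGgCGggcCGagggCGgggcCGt
Arpc2: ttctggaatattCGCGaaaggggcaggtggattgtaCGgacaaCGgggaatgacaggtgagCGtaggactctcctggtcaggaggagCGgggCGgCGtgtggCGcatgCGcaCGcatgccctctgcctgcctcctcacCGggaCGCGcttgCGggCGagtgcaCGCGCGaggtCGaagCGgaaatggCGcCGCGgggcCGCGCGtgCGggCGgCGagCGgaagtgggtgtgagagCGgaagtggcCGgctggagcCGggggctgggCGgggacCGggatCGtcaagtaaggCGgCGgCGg
The Fmn2 window held 17 CG dinucleotides, more than 68.6% of 32851 RefSeq promoter windows of the same length, whose median was 7. Actr2 held 33, more than 91.4% of the windows, and Arpc2 40, more than 96.1%. Among the other 5 genes with an entry, Actr3 held 34, Spire2 31, Cfl1 22, Msn 21 and Myh9 19, so that Fmn2 had the fewest of the 8. The letters GGGCGG, searched on both strands, occurred 2 times in the Fmn2 window, 5 times in Actr2 and 3 times in Arpc2, and in 35.7% of all windows. TATAAA, also searched on both strands, was in none of the 3 and in 13.6% of all windows, and among the 8 genes it was found once, in Myh9. The RefSeq start lay 0 bases from the start of the measured transcript in Fmn2, 31 bases in Actr2 and 135 bases in Arpc2.

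Spire1, which nucleates filaments together with Fmn2, lies at chr18:67488209-67610902 on the minus strand. It stood at 137, 150, 92.3 and 77.5 RPM in Setd1b cKO oocytes and at 187, 164 and 90.8 RPM in Setd1b WT oocytes. The genotypes overlapped, since Setd1b WT replicate 3 lay under 3 of the 4 Setd1b cKO oocytes. The means were 114 ± 34.6 and 147 ± 50.2 RPM, and the log2 fold change of -0.35 did not pass the test (95% interval -1.04 to 0.34, adjusted p = 0.583). A change of 2-fold downwards is just inside that interval.

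Spire2, the other Spire nucleator, was read from the transcript at chr8:123332618-123369432 on the plus strand, which the table lists under the neighbouring name Gm20388 and which shares 0.995 of the joint span with Spire2. It stood at 2.57, 3.38, 3.66 and 4.54 RPM in Setd1b cKO and at 2.67, 3.78 and 5.43 RPM in Setd1b WT, from 26 to 58 reads. The values of the genotypes interleaved, and the log2 fold change was -0.11 (95% interval -0.77 to 0.56, adjusted p = 0.885). Per kb of exon the Setd1b WT level of Spire1 was 25.8 RPM and that of Spire2 1.58 RPM.

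The balance of the nucleators was taken within each library, where the scaling between libraries cancels. The log2 ratio of Fmn2 to Spire1 was -1.28, -1.60, -1.45 and -0.40 in Setd1b cKO and -0.90, -0.29 and 0.21 in Setd1b WT. The genotypes overlapped through Setd1b cKO replicate 4, where Spire1 was lowest and Fmn2 highest of its genotype. The log2 ratio of Fmn2 to Spire2 averaged 3.81 ± 0.51 (SD, n = 4) and 4.88 ± 0.53 (SD, n = 3) and overlapped as well.

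Myo5b, the myosin Vb motor that moves Rab11 vesicles towards the cortex, lies at chr18:74439827-74771493 on the plus strand. It was read at 107, 107, 109 and 94.96 RPM in Setd1b cKO and at 148, 145 and 113 RPM in Setd1b WT. Every Setd1b cKO oocyte was below every Setd1b WT oocyte, though Setd1b WT replicate 3 came within a few RPM of the highest Setd1b cKO oocyte. The means were 105 ± 6.61 and 135 ± 19.3 RPM. The log2 fold change of -0.36 did not pass the test, and its 95% interval from -0.79 to 0.07 excludes a change of 2-fold (adjusted p = 0.325). No alternative brought it past the threshold.

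The Arp2/3 complex is represented by its 2 actin-related proteins and a scaffold subunit. Actr2, which encodes Arp2, lies at chr11:20062304-20112982 on the minus strand. It was read at 452, 529, 668 and 237 RPM in Setd1b cKO and at 593, 803 and 446 RPM in Setd1b WT. Between oocytes of a genotype it varied more than Actr3 and Arpc2. The genotypes overlapped, with Setd1b cKO replicate 4 far under the rest, and the log2 fold change was -0.43 (95% interval -1.20 to 0.33, adjusted p = 0.528). A 2-fold decrease is within this interval. Actr3, which encodes Arp3, lies at chr1:125392904-125436087 on the minus strand, and was read at 48.9, 48.4, 58.8 and 39.5 RPM in Setd1b cKO and at 50.4, 57.3 and 45.8 RPM in Setd1b WT. Its values interleaved (log2 fold change -0.07, 95% interval -0.54 to 0.40, adjusted p = 0.895), and the sign changed in some alternatives. Arpc2, the scaffold subunit, lies at chr1:74236382-74268209 on the plus strand, and was read at 66.6, 85.6, 71.6 and 76.3 RPM in Setd1b cKO and at 59.3, 74.4 and 68.02 RPM in Setd1b WT. It was the one tested gene of the 8 with a log2 fold change above 0, at 0.16, with overlapping genotypes (95% interval -0.28 to 0.60, adjusted p = 0.722). The intervals of Actr3 and Arpc2 exclude a 2-fold change either way.

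Cfl1, the gene of cofilin, which severs filaments and returns actin to the monomer pool, lies at chr19:5489567-5494029 on the plus strand. It was read at 380, 414, 372 and 301 RPM in Setd1b cKO and at 411, 434 and 348 RPM in Setd1b WT. The values interleaved, and the log2 fold change was -0.12 (95% interval -0.58 to 0.34, adjusted p = 0.800). Set against Actb, the gene of its substrate, the log2 ratio of Cfl1 was 0.89, 0.87, 0.78 and 0.69 in Setd1b cKO and 1.32, 1.18 and 1.26 in Setd1b WT, so that here all Setd1b cKO oocytes were below all Setd1b WT oocytes. Neither gene passed the test alone, and Actb had a log2 fold change of 0.32 (adjusted p = 0.382).

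Myh9, the heavy chain of non-muscle myosin IIA, lies at chr15:77760586-77842307 on the minus strand. It was read at 29.9, 45.9, 54.2 and 23.5 RPM in Setd1b cKO and at 50.2, 44.4 and 28.7 RPM in Setd1b WT. The genotypes overlapped over nearly their whole range (log2 fold change -0.13, 95% interval -0.84 to 0.57, adjusted p = 0.865). Msn, the gene of moesin, was read from the transcript at chrX:96074282-96168552 on the plus strand, which begins 21763 bases from the RefSeq start. It was read at 0.990, 1.07, 0.784 and 0.699 RPM in Setd1b cKO and at 1.46, 0.771 and 0.748 RPM in Setd1b WT, from 6 to 18 reads each. With the filter lifted its log2 fold change was -0.07 (95% interval -0.60 to 0.47, adjusted p = 0.911), and no difference between genotypes was found.

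**Figure D3:**
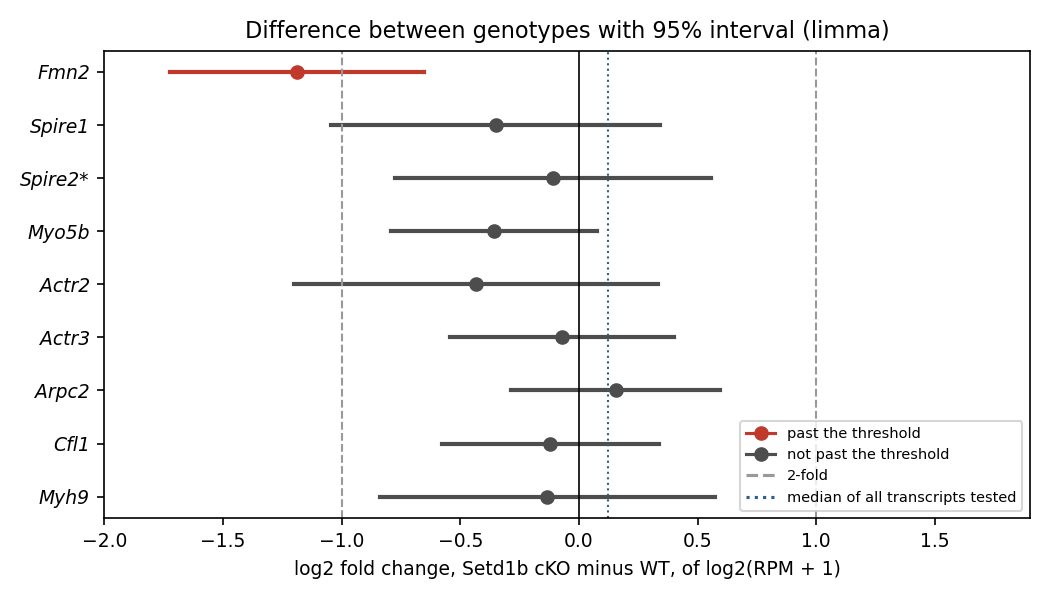
Log2 fold change of the 8 tested genes and of Spire2, Setd1b cKO minus Setd1b WT, with the 95% interval from limma, dashed lines at 2-fold and a dotted line at 0.12, the median of all transcripts tested. Fmn2 at -1.19 is the one interval that excludes 0, and those of Spire1 and Actr2 reach past the 2-fold line.

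For the 7 tested genes other than Fmn2 a missed threshold does not show an equal level. In 5 of them, Myo5b, Actr3, Arpc2, Cfl1 and Myh9, the 95% interval lay inside 2-fold, while for Spire1 and Actr2 it did not. Stretches of 4 genes were near-identical to other annotated genes, so that reads may be shared with those or removed for low mapping quality. This makes the levels of the 4 genes uncertain. At 95% identity over at least 75 bases, Actr3 matched 2 other annotated genes, with the longest match at 2348 bases, Cfl1 matched 3, and Actr2 and Arpc2 matched 1 each. The match was 0 for Fmn2, Spire1, Spire2, Myo5b, Myh9 and Msn.

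Between oocytes of a genotype, most of the genes had their lowest value in the same library, and Fmn2 and Arpc2 did not. Setd1b cKO replicate 4 was the lowest of its genotype in 6 of the 8 tested genes, namely Spire1, Myo5b, Actr2, Actr3, Cfl1 and Myh9, and Setd1b WT replicate 3 was the lowest of its genotype in the same 6. Setd1b cKO replicate 4 and Setd1b WT replicate 3 are the libraries that stood apart over all transcripts, and their part in the levels of the 6 genes was not tested. The share of all transcripts that were lowest in these libraries was not counted. The 6 of 8 can therefore not be read as particular to these genes. Arpc2 was lowest in replicate 1 of each genotype, and Spire2 was highest in Setd1b cKO replicate 4 and Setd1b WT replicate 3. For Fmn2, Setd1b cKO replicate 4 was the highest of its genotype, and Setd1b cKO replicate 3, which was the highest in Myo5b, Actr2, Actr3 and Myh9, was the lowest. Without both libraries that stood apart, Fmn2 remained past the threshold and none of the other 7 genes reached it.

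**Figure D4:**
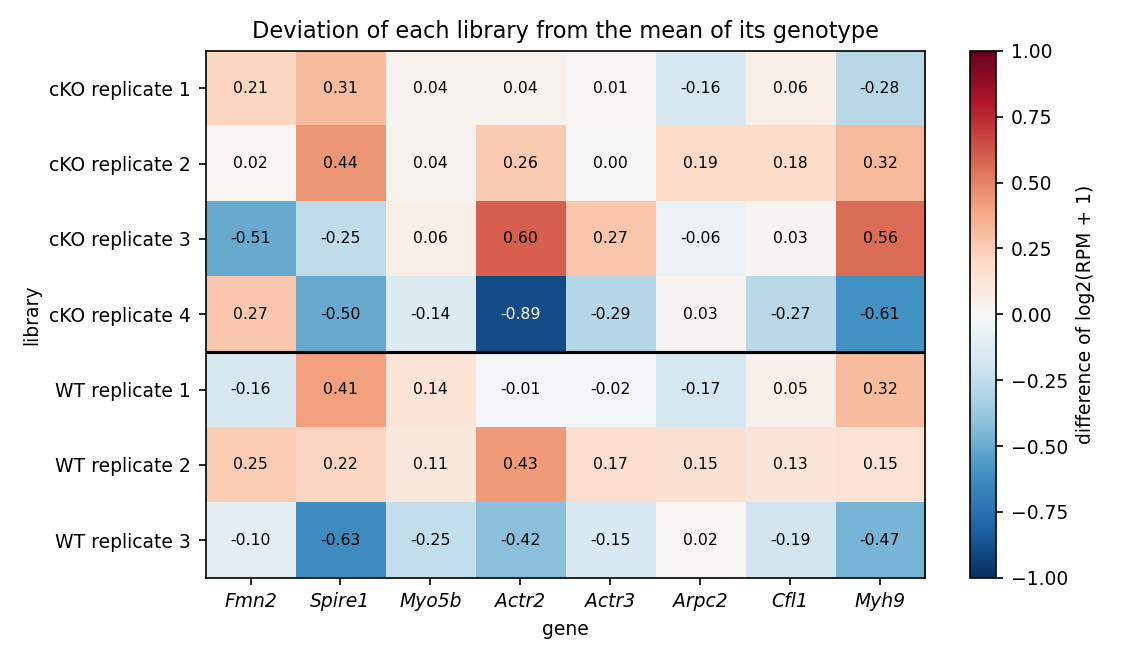
Deviation of each of the 7 libraries (rows) from the mean of its genotype in each of the 8 tested genes (columns), as a difference of log2(RPM + 1), red above and blue below. The rows of Setd1b cKO replicate 4 and Setd1b WT replicate 3 are blue in Spire1, Myo5b, Actr2, Actr3, Cfl1 and Myh9, down to -0.89 in Actr2, whereas Fmn2 in Setd1b cKO replicate 4 is at 0.27.

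Across the 7 libraries, which share the difference between genotypes, the level of Fmn2 correlated most with that of Myo5b among the 8 other genes over the filter, Spire2 included (Pearson r = 0.71), then with Spire1 (r = 0.41), and with Arpc2 it ran the other way (r = -0.36). Among 5060 other transcripts of at least 16 RPM on average, the 3 most like Fmn2 were Ttll11, a tubulin polyglutamylase gene (r = 0.99), Slc39a10, a zinc transporter gene (r = 0.99), and a long transcript listed as Gm28818 (r = 0.99). Their log2 fold changes were -1.01, -0.50 and -1.02. These correlations describe 7 libraries of 2 genotypes and were given no test.

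The rest of the actin machinery was followed in 8 lists of 115 further genes, of which 97 were found by name and 89 were tested. In these lists 1 gene rose and 3 fell (4.49%, beside 5.71% of all transcripts). Every Setd1b cKO library was below every Setd1b WT library in 9 of the 89 (10.1%, beside 7.14%) and above in 10 (11.2%, beside 13.2%). The median log2 fold change was 0.17, beside 0.12 over all transcripts.

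Among the other nucleators, 0 of 10 tested passed in either direction, with a median log2 fold change of 0.15. Fhod3, a formin, was at 73.4 ± 2.28 RPM (SD, n = 4) and 110 ± 5.35 RPM (SD, n = 3), below in every Setd1b cKO oocyte, and its log2 fold change of -0.58 did not pass (adjusted p = 0.0910). Daam1, another formin, was above in every Setd1b cKO oocyte with a log2 fold change of 0.34 (adjusted p = 0.384). Fmnl2, a formin below the level set for naming and picked after its values were seen, had the largest change of these 10. It was at 12.6, 16.9, 23.9 and 13.2 RPM in Setd1b cKO and at 9.23, 9.02 and 4.96 RPM in Setd1b WT, above in every Setd1b cKO oocyte, and its log2 fold change of 1.01 did not pass (adjusted p = 0.0830). None of 17 other genes of the Arp2/3 complex and its activators passed, and their median was 0.23. Among 18 turnover genes 0 passed, and Ssh1, a phosphatase that activates cofilin, was at 42.3 ± 3.94 and 26.1 ± 4.70 RPM without overlap (log2 fold change 0.69, adjusted p = 0.0893).

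Of 8 genes of class V myosins and Rab11 vesicles, Rab11fip1, a Rab11 effector, rose, which is 1 of 8 (12.5%) beside 5.71% of all transcripts in either direction. It was at 28.2, 35.5, 54.5 and 33.7 RPM in Setd1b cKO and at 16.8, 13.3 and 17.6 RPM in Setd1b WT, with a log2 fold change of 1.18 (SE 0.26, adjusted p = 0.0258). The genotypes did not overlap, and the call was lost without Setd1b cKO replicate 2 (1.19, adjusted p = 0.0527), Setd1b cKO replicate 3 (0.99, adjusted p = 0.0705), Setd1b WT replicate 1 (1.22, adjusted p = 0.0817) or Setd1b WT replicate 2 (1.06, adjusted p = 0.125). Of 10 myosin II genes and regulators 0 passed. Anln, the gene of anillin, had a log2 fold change of 0.74 (adjusted p = 0.0856), Ect2, which acts in cytokinesis, one of 0.38 (adjusted p = 0.306), and Ppp1r12a, a subunit of myosin phosphatase, one of -0.52 (adjusted p = 0.167), all without overlap between genotypes.

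Of 10 ERM and cortical genes 0 passed, with a median of 0.42. The ERM gene Rdx, which encodes radixin, stood far above Msn, at 1675, 1610, 1414 and 1606 RPM in Setd1b cKO and at 2425, 2670 and 2598 RPM in Setd1b WT. The genotypes did not overlap, and its log2 fold change of -0.70 did not pass (95% interval -1.17 to -0.24, adjusted p = 0.0787). Slk, a kinase that phosphorylates ERM proteins, had a log2 fold change of 0.56 (adjusted p = 0.194). Per kb of exon, the Setd1b WT mean was 553 RPM for Rdx and 0.258 RPM for Msn.

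Of 6 actin and tropomyosin genes 0 passed. Actg1, which encodes gamma actin, was at 164, 205, 145 and 65.2 RPM in Setd1b cKO and at 83.0, 67.4 and 42.6 RPM in Setd1b WT. Setd1b cKO replicate 4 lay among the Setd1b WT oocytes and the other 3 above all of them. The log2 fold change of 1.09 did not pass with all libraries (adjusted p = 0.116), and without Setd1b cKO replicate 4 it was 1.43 and passed (adjusted p = 0.00815).

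The genes upstream of the cortical actin cap held 3 of the calls, all downward, among 10 tested (beside 1.95% of all transcripts called lower and 5.71% in either direction), with a median of -0.14. Mos, the oocyte kinase that starts the MAPK cascade, was at 196, 204, 163 and 201 RPM in Setd1b cKO and at 551, 406 and 500 RPM in Setd1b WT (log2 fold change -1.34, SE 0.20, adjusted p = 0.00581). Every Setd1b cKO oocyte was at less than the lowest Setd1b WT oocyte, and the call was made in 17 of 17 alternatives. The measured transcript, at chr4:3860066-3874476, is much longer than the annotated gene, which covers 0.101 of the joint span. Mapk3, which encodes the kinase ERK1 of the same cascade, was at 80.2, 85.1, 57.5 and 62.5 RPM in Setd1b cKO and at 231, 115 and 166 RPM in Setd1b WT (log2 fold change -1.21, adjusted p = 0.0253), and the call was lost without Setd1b cKO replicate 1 (-1.27, adjusted p = 0.0564), Setd1b cKO replicate 3 (-1.11, adjusted p = 0.0835), Setd1b WT replicate 1 (-0.96, adjusted p = 0.115) or Setd1b WT replicate 3 (-1.20, adjusted p = 0.0553). Pard3, a polarity scaffold, was at 28.0, 37.1, 40.4 and 30.6 RPM in Setd1b cKO and at 99.2, 91.0 and 67.8 RPM in Setd1b WT (log2 fold change -1.31, adjusted p = 0.0101), and the call was lost without Setd1b WT replicate 1 (-1.20, adjusted p = 0.0563) or replicate 2 (-1.26, adjusted p = 0.0604). The Pard3 transcript used has the highest mean of 4 with that name and strand, and shares 0.673 of the joint span with the annotated gene. Ran, the GTPase of chromatin signalling to the cortex, was above in every Setd1b cKO oocyte with a log2 fold change of 0.58 (adjusted p = 0.142).

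**Figure D5:**
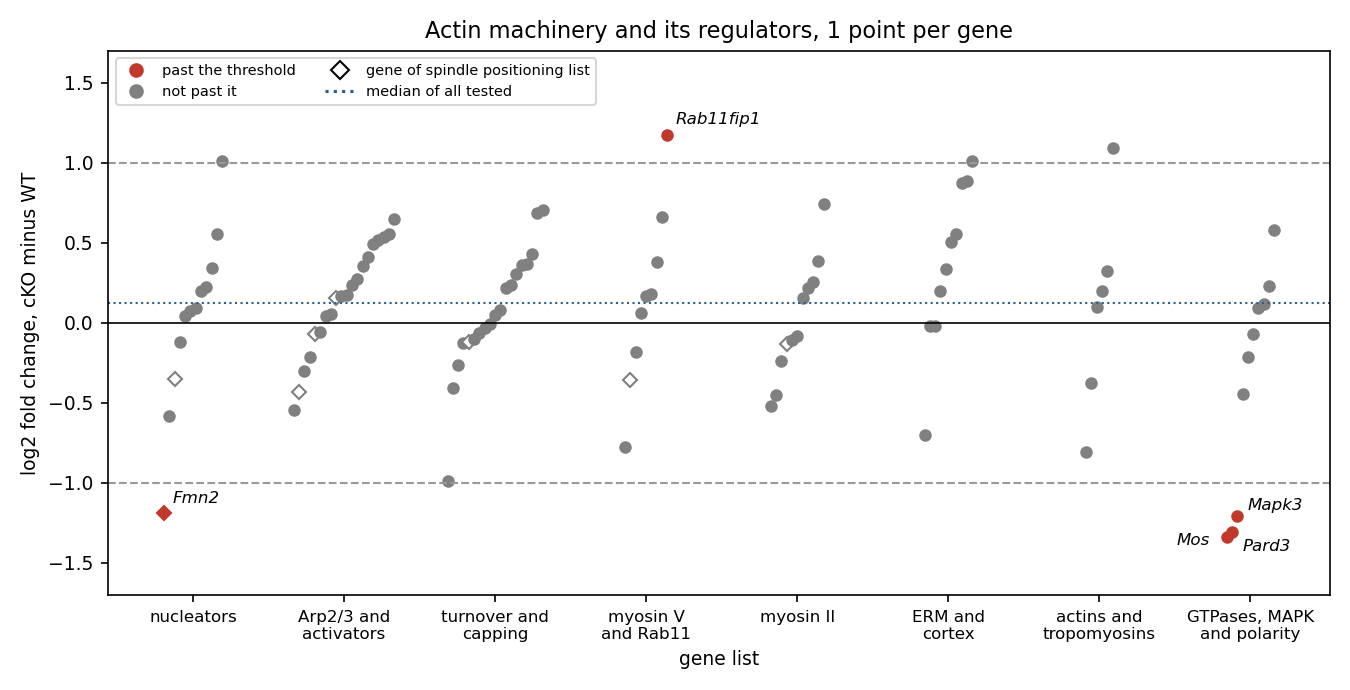
Log2 fold change of each tested gene, Setd1b cKO minus Setd1b WT, in 8 lists of actin genes and regulators, sorted within each list, with diamonds for the genes of spindle positioning, dashed lines at 2-fold and a dotted line at 0.12, the median of all transcripts tested. Red points are past the threshold: Fmn2 at -1.19, Mos at -1.34, Pard3 at -1.31 and Mapk3 at -1.21 below, and Rab11fip1 at 1.18 above.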

How the data were processed

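The authors deposited log2 RPM values, in which the reads of a transcript are relative to all mapped reads of the library. The authors amplified cDNA of single oocytes with the SMARTer kit, sequenced 75-base single reads, trimmed them, mapped them with Hisat to GRCm38, removed hits with a mapping quality under 20, and quantified merged oocyte transcripts in SeqMonk. Their notes also list bcl2fastq 1.8.4 and featureCounts 1.4.4. Whether counting used the strand is not given in the sources used here, so antisense and overlapping transcripts are uncertain. Taken out of the log, 100% of the values above the floor were whole multiples of 1 read in every library (tolerance 0.001), which gave back the reads and the mapped totals. A transcript with 0 reads was set to 0 RPM.

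Transcripts of 1 RPM or more in 3 or more libraries were compared on log2(RPM + 1) by limma-trend (lmFit, eBayes; limma 3.58.1, R 4.3.3), two-sided, without covariates, over all 18179 transcripts with Benjamini-Hochberg adjustment. The study used a model for counts. Here the deposited unit is a log2 value, and voom on the recovered reads was an alternative. A fold change on this scale understates the change of low genes. The fits were tested on simulated data. If several rows carried a gene's name and strand, the one with the highest mean was used. Where none did, a transcript sharing at least 0.5 of the joint span with the GENCODE gene was added. The 10 genes, the 8 wider lists and the tests were chosen with earlier results of these data known. Of each wider list, genes past the threshold (at most 6) were named, then at most 3 of at least 16 RPM on average whose libraries did not overlap between genotypes, with the largest changes, and Actb and Actg1 always. Exon lengths are those of protein-coding GENCODE transcripts, and promoter sequences are from RefSeq, where 8 of the 10 genes had an entry. Alternatives changed the pseudocount, the filter, the scaling or the fit, or left out libraries. Figures and tables were made with Python 3.11.15, pandas 2.3.3 and matplotlib 3.10.9.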

Additional observations from a re-analysis of the deposited data

Results flagged for a closer look

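In Myo5b, Setd1b cKO replicate 4 lay apart from the other 3 oocytes of its genotype, at 94.96 RPM against 107 to 109 RPM. The gap was 0.863 of the whole range, above Dixon's 95% critical value for 4 samples. Of 25 genes checked in the 4 Setd1b cKO libraries this was the 1 that passed, and chance gives about 1.25. The 3 Setd1b WT oocytes were not checked. Without that replicate Myo5b did not pass the threshold either.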

How the results depend on the processing

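Over all transcripts, 683 higher calls became 315 with a pseudocount of 5 RPM, 396 without a filter, 428 after quantile normalisation, 443 with voom and 172 to 857 with 1 library left out, and 355 lower calls became 117 to 435 with 1 library left out. The count of the 8 genes called lower was 1 in every setting but the 3 that left out a library named with Fmn2 (range 0 to 1). Of the wider lists 1 gene was higher, against 3 with the replicate block, 4 without both libraries that stood apart and 0 to 3 with 1 library left out, and 3 were lower, against 4 without both libraries that stood apart, 4 after quantile normalisation and 1 to 3 with 1 library left out. The sign of Spire2 reversed among the left-out libraries (-0.31 to 0.098), as did that of Actr3 (-0.16 to 0.025) and Myh9 (-0.37 to 0.070). Actr3 also reversed on the scale of reads within transcripts (0.0071) and with the replicate block (0.025), and Myh9 with the block (0.070). The cause was not tested. With all libraries and no block, naming genes by span added 0 calls to the wider lists. Same-numbered oocytes deviated with correlations of 0.19, 0.29 and -0.13, and Setd1b WT replicate 3 deviated most like Setd1b cKO replicate 4 (0.61). So few correlations cannot tell whether the numbers pair the oocytes. The block, in which Setd1b cKO replicate 4 has no partner and adds nothing to the fold change, gave 924 higher and 479 lower calls, and Fmn2 at -1.28 (adjusted p = 0.00654). With 1 oocyte per library, values near 1 RPM, as in Msn, rest on few reads.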

Other observations

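Genes of the wider lists that the table does not name were read by span. Ezr, the ERM gene of ezrin, was at 5.64, 3.46, 6.18 and 2.56 RPM in Setd1b cKO and at 2.67, 0.771 and 0.468 RPM in Setd1b WT. The values overlapped through Setd1b cKO replicate 4, and the log2 fold change of 1.31 did not pass (adjusted p = 0.0789). Over 16 alternatives it ran from 0.58 to 2.01 and passed in 2, without Setd1b cKO replicate 4 (1.49, adjusted p = 0.0388) and with the replicate block (1.49, adjusted p = 0.0330). The log2 ratio of Msn to Ezr within a library was -2.51, -1.69, -2.98 and -1.87 in Setd1b cKO and -0.87, 0 and 0.68 in Setd1b WT, all Setd1b cKO oocytes below all Setd1b WT oocytes, from few reads of either gene. Rhoa, a GTPase that activates myosin II, had a log2 fold change of 0.30 (adjusted p = 0.458), and Rac1, a GTPase of the cortical actin cap, one of 0.51 (adjusted p = 0.245).

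The log2 ratio of Actr2 to Actr3, the 2 actin-related proteins of one complex, averaged 3.19 ± 0.42 (SD, n = 4) in Setd1b cKO and 3.55 ± 0.26 (SD, n = 3) in Setd1b WT and overlapped. That of Actr3 to Arpc2 averaged -0.63 ± 0.31 and -0.39 ± 0.17, and that of Myh9 to Myh10, the heavy chain of non-muscle myosin IIB, 2.59 ± 0.15 and 2.64 ± 0.66, each with overlap. For Myh9 to Myh10 the spread was wider among the 3 Setd1b WT oocytes, from 1.99 to 3.31, than among the 4 Setd1b cKO oocytes, from 2.44 to 2.79.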
